A study of Mus musculus with 2 samples.

Results

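The nuclear lamina and envelope genes described here are Lmna, Lmnb1, Lmnb2, Emd, Sun1, Sun2, Syne1, Syne2, Lbr and Tmpo, which encode lamins and proteins of the inner and outer nuclear membrane. They were taken by symbol from the gene tables of a control and a Seh1cKO library, chosen as the neighbours of the nuclear pore. All 10 genes were found, among 18651 genes listed in either library. The libraries were made from immature mouse oligodendrocytes, the myelin-forming cells of the brain, to ask what Seh1, a scaffold protein of the nuclear pore encoded by Seh1l, does in their differentiation with Olig2 and Brd7. Precursor cells of strain C57BL/6 were immunopanned with anti-GalC and then anti-O4 plates from forebrain cortex of pups at postnatal day 4 to 7. Expansion medium held, per ml, 20 ng of PDGF-AA, 20 ng of bFGF, 10 ng of CNTF and 1 ng of NT3, and both groups were then differentiated for 2 days with 60 nM triiodothyronine (T3) after withdrawal of PDGF-AA, bFGF and NT3. The control is labelled wild type and the Seh1cKO, a conditional knockout, is labelled mutant. Neither the Cre driver nor the deleted exons nor any pooling of pups is stated in the labels. There was 1 library per group, so no test of genotype was possible. Every ratio below compares these libraries, and its interval covers counting error only.

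The lamina is a meshwork of intermediate filaments that lines the inner nuclear membrane, gives the nucleus its stiffness and anchors heterochromatin. Lmna encodes the A-type lamins A and C by alternative splicing, while Lmnb1 and Lmnb2 encode the B-type lamins, which keep a farnesyl anchor. Emerin (Emd) and the lamina-associated polypeptides 2 (Tmpo) carry a LEM domain that binds the chromatin protein BAF. The lamin B receptor (Lbr) tethers heterochromatin and also has sterol reductase activity. SUN proteins (Sun1, Sun2) of the inner membrane bind nesprins (Syne1, Syne2) of the outer membrane and so form the LINC bridge from the lamina to the cytoskeleton. In humans, duplication of LMNB1 causes an adult-onset leukodystrophy, a loss of central myelin.

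The libraries held 20730124 (control) and 20599573 (Seh1cKO) assigned reads. Seh1l, the targeted gene, had 32.1 CPM (reads per 1000000 assigned reads) in control against 18.5 CPM in the Seh1cKO library, a ratio of 0.577 (0.508 to 0.656). The summed level of 10 markers of mature oligodendrocytes was 3000 CPM in control and 627 CPM in Seh1cKO; of these Mobp was nearly undetected, at 0.289 and 0.0971 CPM. Of the 13758 genes at a mean of at least 1 CPM, 60.9% were higher in Seh1cKO, a share to set beside the marker counts here. Precursor markers summed to 2968 and 2943 CPM. Of these, 5 of 8 were higher, among them Pdgfra with a ratio of 1.77 (1.70 to 1.85). The other 3 were lower, among them Gpr17 with 0.293 (0.279 to 0.307). Astrocyte markers summed to 11620 and 7498 CPM, with 6 of 8 lower, a median log2 ratio of -0.28 and the filament gene Gfap at 5200 and 2214 CPM; Gja1, at 1.40 (1.33 to 1.48), and Aldh1l1, at 1.17 (1.13 to 1.20), were higher. Neuronal markers summed to 414 and 436 CPM, with 4 of 6 higher and a median log2 ratio of 0.70. Fibroblast and mural markers, of which 10 of 10 were higher in Seh1cKO and none was at 0, summed to 211 and 626 CPM. Epithelial and mesothelial markers summed to 11.9 and 220 CPM, with 7 of 8 measured genes higher and Upk3b at 0 in Seh1cKO. Endothelial markers summed to 11.1 and 25.4 CPM with Cldn5 at 0 in control; without Cdh5, at 1.01 and 13.8 CPM, the sums were 10.1 and 11.7 CPM. The microglial markers summed to 8.44 and 17.9 CPM with none at 0. Xist, expressed from the inactive X chromosome of females, was at 0.868 and 341 CPM, and the Y-linked Eif2s3y at 82.2 and 0.0485 CPM. The libraries thus differed in sex-linked expression, and genotype and sex cannot be told apart for any ratio given here. In bulk RNA, fewer cells of a type and less RNA per cell cannot be told apart either.

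The envelope genes were modestly higher in Seh1cKO as a group, and none reached a 2-fold difference. All 10 were measured, that is, at a mean of at least 1 CPM. All 10 were higher in Seh1cKO, against 60.9% of the 13758 measured genes and 56.2% of the 8400 genes whose mean was 20 CPM or higher, the range in which all 10 envelope genes lie, though Sun1 turned lower under scaling by the median of ratios, by TMM factors and on the FPKM scale. The counting interval of the ratio lay above 1 for 8 genes, against 35.5% of all measured genes and 35.3% at 20 CPM or more; it lay below 1 for none, against 20.0%. With sizes scaled by the median of ratios or by TMM, an alternative chosen after seeing the data, 6 genes kept an interval above 1 (26.6% and 25.9% of measured genes); Lmnb2 and Emd did not. The median log2 ratio, computed on CPM + 1, was 0.29, beside 0.07 for all measured genes and 0.03 for those at 20 CPM or more. Single genes ranged from 0.04 to 0.59, a spread between genes and not an error of the median. Summed over the 10 genes the level was 605 CPM in control and 787 CPM in Seh1cKO. On log2(CPM + 1), only Lmna passed 1.5-fold higher, a call lost with a pseudocount of 5 CPM, with the median of ratios, with TMM factors and on the FPKM scale. It is 1 of 10 genes against 9.43% of all measured genes and 4.23% at 20 CPM or more. None was 1.5-fold lower (3.52% of genes), 2-fold higher (2.86%) or 2-fold lower (1.29%). None of the 10 is among the 896 genes of the authors' deposited table, whose smallest absolute log2 fold change is 1.00.

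**Figure D1:**
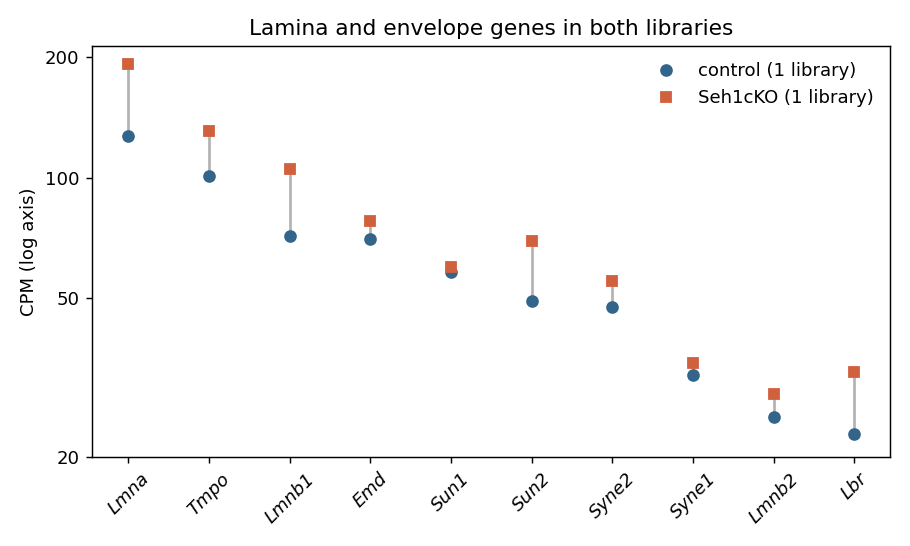
Level of each envelope gene in CPM (log axis) in the control library (circles) and the Seh1cKO library (squares), 1 library each, in order of the control level. Every square lies above its circle, by the most for Lmna, from 127 to 192 CPM, and by the least for Sun1, from 58.2 to 59.7 CPM, a difference that turned under other scalings.

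Of the lamins, Lmna and Lmnb1 were higher by about the same ratio and Lmnb2 by less. Lmna (Entrez 16905, GRCm38 chromosome 3, 88481148 to 88509932) had 2633 control reads and 3962 Seh1cKO reads, or 127 and 192 CPM. The ratio was 1.51 (1.44 to 1.59), and the log2 ratio of 0.59 was at the 90.9 percentile of all measured genes. A-type lamin is abundant in stiff and mesenchymal tissues, and the fibroblast and mural markers were higher in the same library, with a median log2 ratio of 1.72. Their part in the Lmna difference was not tested. Lmnb1 (Entrez 16906, chromosome 18, 56707813 to 56753424), the B-type lamin whose human dosage matters for myelin, stood at 71.4 CPM (control) and 105 CPM (Seh1cKO). Its ratio was 1.48 (1.38 to 1.58), from 1480 and 2172 reads. The markers of mature oligodendrocytes went the other way, with 9 of 9 measured genes lower and a median log2 ratio of -2.28. A link between these markers and the Lmnb1 difference was not tested. Lmnb2 (Entrez 16907, chromosome 10, 80901363 to 80918245), the second B-type lamin, had 25.2 CPM (control) and 28.7 CPM (Seh1cKO), and a ratio of 1.14 (1.01 to 1.28).

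The pooled lamin level was higher in Seh1cKO, with nearly the same split between A and B types. Per transcript length, in FPKM, the 3 lamins summed to 95.0 (control) and 136 (Seh1cKO), which is 1.43-fold higher. Lmna made up 66.2% of this sum in control and 66.9% in Seh1cKO. The Lmnb1 share was 26.0% and 26.9%, and the Lmnb2 share 7.77% and 6.20%. The ratio of Lmna to Lmnb1 reads was 1.78 and 1.82, a change of 1.03 (0.943 to 1.11) whose interval spans 1. The ratio of Lmnb1 to Lmnb2 reads was 2.83 in control and 3.68 in Seh1cKO, a change of 1.30 (1.13 to 1.49). Such a ratio within a library does not depend on how the libraries are scaled to each other.

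**Figure D2:**
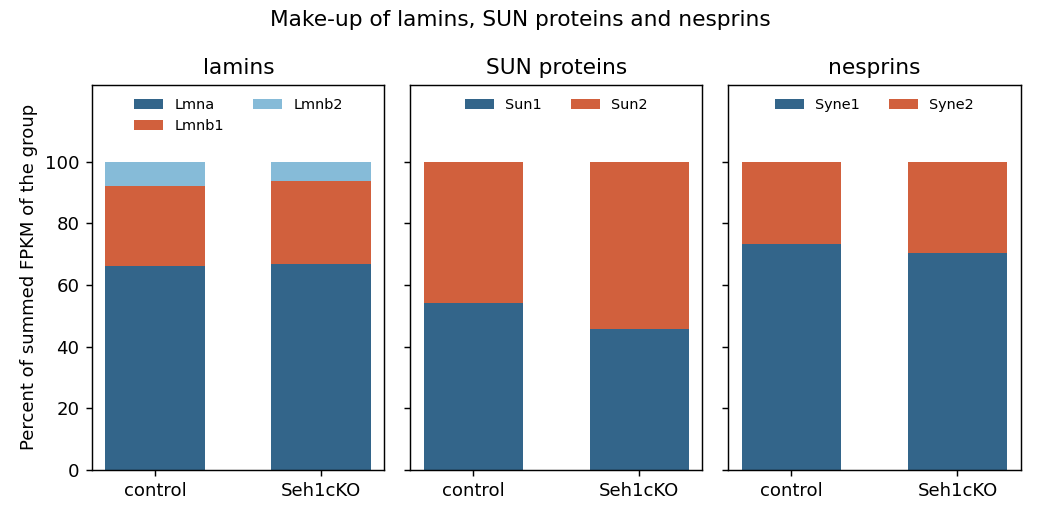
Share of each gene in the summed FPKM of lamins, SUN proteins and nesprins, in percent, for the control and the Seh1cKO library. Lmna held 66.2% and 66.9% of lamin FPKM, while Sun2 passed from 45.8% to 54.3% of SUN FPKM.

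The SUN proteins of the inner membrane differed from each other. Sun2 (Entrez 223697, chromosome 15, 79724068 to 79742536) had 1017 reads (49.1 CPM) in control and 1429 reads (69.4 CPM) in Seh1cKO, for a ratio of 1.41 (1.30 to 1.53). Sun1 (Entrez 77053, chromosome 5, 139200564 to 139249839) was nearly level, at 58.2 and 59.7 CPM from 1206 and 1229 reads. Its ratio of 1.03 (0.946 to 1.11) has an interval across 1, so a difference was not detectable at this depth. The order of the pair turned: Sun1 made up 54.2% of SUN FPKM in control and 45.7% in Seh1cKO. The ratio of Sun2 to Sun1 reads was 0.843 in control and 1.16 in Seh1cKO, a change of 1.38 (1.23 to 1.55). The LINC partners on the outer membrane were closer to equality. Syne2 (Entrez 319565, chromosome 12, 75818318 to 76110928), the giant protein nesprin-2, had 47.4 CPM in control and 55.2 in Seh1cKO, for a ratio of 1.16 (1.07 to 1.27). Syne1 (Entrez 64009, chromosome 10, 5020192 to 5550692), nesprin-1, had 32.0 and 34.3 CPM, and the interval of its ratio of 1.07 (0.962 to 1.19) spans equality. The ratio of Syne2 to Syne1 reads changed by 1.09 (0.946 to 1.25).

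Among the other membrane proteins, Lbr and Tmpo stood higher than Emd. Lbr (Entrez 98386, chromosome 1, 181815315 to 181842401) had 472 reads (22.8 CPM) in control and 671 reads (32.6 CPM) in Seh1cKO, for a ratio of 1.43 (1.27 to 1.61). Tm7sf2, its relative among sterol reductases, had 81.3 and 74.2 CPM, for a ratio of 0.913 (0.852 to 0.979). Tmpo (Entrez 21917, chromosome 10, 91147571 to 91181752) had 2103 reads (101 CPM) in control and 2707 reads (131 CPM) in Seh1cKO, for a ratio of 1.30 (1.22 to 1.37). Emd (Entrez 13726, chromosome X, 74254674 to 74261563) had 70.4 CPM in control and 78.0 in Seh1cKO, for a ratio of 1.11 (1.03 to 1.19). Emd is the only X-linked gene among the 10, and the libraries differed in Xist; the part of sex in its value was not tested.

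**Figure D3:**
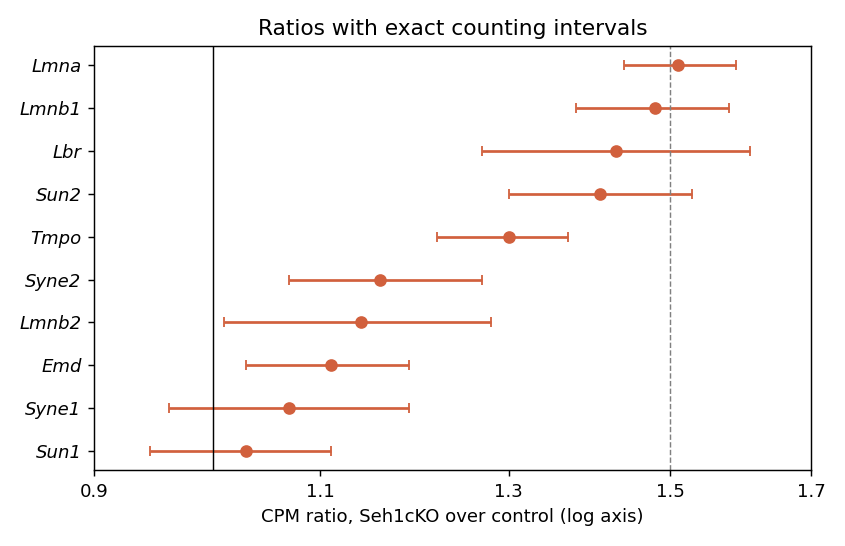
CPM ratio of Seh1cKO over control for each envelope gene (points, log axis) with its exact 95% counting interval (bars); the solid line is equality and the dashed line 1.5-fold. Lmna, Lmnb1, Lbr, Sun2 and Tmpo form the upper group, from 1.30 to 1.51, and Sun1 and Syne1 have intervals across 1.

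The 28 genes of the cell cycle list were higher in the same library without exception, against 60.9% of all measured genes. Their median log2 ratio was 0.63 in a range of 0.32 to 1.03, and they summed to 1202 CPM in control and 1852 CPM in Seh1cKO. Top2a, the topoisomerase of dividing cells, had 115 and 178 CPM, for a ratio of 1.55 (1.47 to 1.63). Mki67, the proliferation antigen, had a ratio of 1.44 (1.36 to 1.52), and Pcna, the DNA polymerase clamp, 1.33 (1.27 to 1.40). Lmnb1, Lbr and Tmpo lay within the range of this list, at log2 ratios of 0.56, 0.50 and 0.37, as did Lmna at 0.59 and Sun2 at 0.49. The other 5 envelope genes lay below it, from 0.04 to 0.21. The part of cycling cells in these values was not tested.

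Compared per transcript length, the envelope genes kept most of their order. In control the FPKM levels ran from Lmna at 62.9 (60.5 to 65.4) over Emd at 44.1 (41.9 to 46.5), Tmpo at 28.0 (26.8 to 29.3) and Lmnb1 at 24.7 (23.5 to 26.0) to Sun1 at 15.2 (14.4 to 16.1) and Sun2 at 12.9 (12.1 to 13.7). Lmnb2 followed at 7.38 (6.76 to 8.04), then Lbr at 6.33 (5.77 to 6.93) and Syne1 at 5.90 (5.46 to 6.37), neighbours whose counting intervals overlap, and last Syne2 at 2.15 (2.02 to 2.29). In Seh1cKO, Lmna at 90.7 (87.9 to 93.5) and Emd at 48.9 (46.5 to 51.4) still led. Lmnb1 at 36.5 (35.0 to 38.1) and Tmpo at 35.8 (34.5 to 37.2) then overlapped, while Sun2 at 18.1 (17.2 to 19.1) stood above Sun1 at 15.2 (14.4 to 16.1). Lbr at 9.05 (8.38 to 9.76) and Lmnb2 at 8.40 (7.74 to 9.11) overlapped, and Syne1 at 5.91 (5.48 to 6.36) and Syne2 at 2.50 (2.36 to 2.65) came last. These are exact Poisson intervals of the reads behind each value.

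The deposited tables give a transcript length for each gene in each library, and for genes with several transcripts this length differed between the libraries. It was the same in both for all 9241 measured genes with 1 listed transcript, and differed for 3988 of 4495 with more. The sources used here do not say how the length was formed; such values would arise as a mean over transcripts weighted by their abundance. For Lmna it was 2017 bases in control and 2118 bases in Seh1cKO, 5.03% longer, and for Syne1 5367 and 5735 bases, 6.86% longer. A difference of at least 5% was seen in 5.67% of genes with several transcripts. Sun1 (3784 and 3887 bases), Tmpo (3587 and 3639 bases) and Sun2 (3780 and 3799 bases) differed by 2.72%, 1.44% and 0.505%. These lengths have no replicate and no interval.

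The annotated transcripts give the Lmna length a scale. In GENCODE M21 the lamin A transcript is 3156 bases long and encodes 665 residues. The lamin C transcript has 2021 bases and 574 residues. The third listed transcript, from a start further downstream, has 1536 bases and 462 residues. If the deposited length is such a weighted mean, lamin A could make up from 0% to 29.7% of Lmna transcripts in control and from 8.57% to 35.9% in Seh1cKO. The ranges overlap, so no difference in splicing follows from them. They are approximate, because the deposited lengths of the envelope genes with 1 transcript exceed those of GENCODE by 6 to 58 bases. For Tmpo the longest transcript (3772 bases, 693 residues) encodes LAP2 alpha, which lacks a membrane anchor, and the next (3533 bases, 452 residues) LAP2 beta, which has one. On the same assumption the shorter Tmpo transcripts could make up at most 10.1% in control and 7.31% in Seh1cKO. Of the 3 Syne1 transcripts listed, the annotation gave a length for the 1431-residue form from the front of the gene, 6990 bases, and for the 949-residue form from its end, 3443 bases, and no range was computed.

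**Figure D4:**
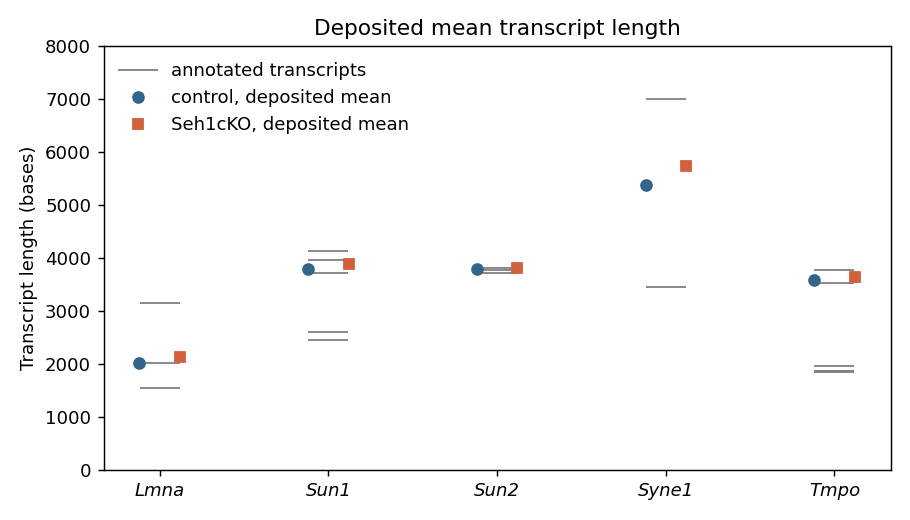
Deposited transcript length in bases of the envelope genes with several transcripts, in control (circles) and Seh1cKO (squares), over the lengths of the annotated transcripts in GENCODE M21 (grey bars; 1 of the Syne1 transcripts had no annotated length). The Lmna value moved from 2017 to 2118 bases, both next to the lamin C transcript of 2021 bases.

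The sequences before the start sites of Lmna, Lbr, Sun2 and Tmpo, which with Lmnb1 had the highest ratios of the 10 genes, and of Sun1, which had the lowest, are shown for comparison. RefSeq windows of GRCm38.p6 were found for 9 of the 10 genes; Lmnb1 had none. Lmna, Sun1 and Tmpo have 2 windows each, for different start sites, and the one further upstream is printed. The printed Tmpo window lies inside the gene as RefSeq spans it: it ends at base 91171869 and the gene at 91181752. The other Tmpo window lies further inside, so neither covers the outer 5′ end of that span. The printed Lmna window lies before the start of the lamin A and C transcripts but 6330 bases inside the gene as RefSeq spans it, and neither Lmna window covers the outer 5′ end of that span. Each is the 250 bases before the annotated start, 5′ to 3′ on the strand of the gene, with capitals for CCAAT and GGGCGG on either strand (ATTGG and CCGCCC on the other). The windows are chr10:91171620-91171869 for Tmpo, chr15:79742537-79742786 for Sun2, chr1:181842402-181842651 for Lbr and chr3:88503353-88503602 for Lmna, all on the minus strand, and chr5:139200387-139200636 on the plus strand for Sun1.
Tmpo: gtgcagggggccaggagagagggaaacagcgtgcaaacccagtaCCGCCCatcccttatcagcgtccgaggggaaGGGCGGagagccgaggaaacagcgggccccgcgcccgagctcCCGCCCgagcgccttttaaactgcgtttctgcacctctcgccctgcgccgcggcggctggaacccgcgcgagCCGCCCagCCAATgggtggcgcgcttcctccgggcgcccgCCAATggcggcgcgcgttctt
Sun2: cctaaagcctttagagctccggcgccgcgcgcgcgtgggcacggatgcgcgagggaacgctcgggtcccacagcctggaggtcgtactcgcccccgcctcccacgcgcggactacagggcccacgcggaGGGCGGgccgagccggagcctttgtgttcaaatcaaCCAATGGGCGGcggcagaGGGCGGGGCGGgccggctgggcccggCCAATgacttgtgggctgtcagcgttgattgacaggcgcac
Lbr: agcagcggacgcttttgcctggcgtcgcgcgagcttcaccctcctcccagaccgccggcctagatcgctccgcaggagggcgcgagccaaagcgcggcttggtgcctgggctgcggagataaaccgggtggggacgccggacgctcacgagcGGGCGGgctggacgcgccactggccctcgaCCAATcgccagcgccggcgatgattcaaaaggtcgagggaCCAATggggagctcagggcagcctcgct
Sun1: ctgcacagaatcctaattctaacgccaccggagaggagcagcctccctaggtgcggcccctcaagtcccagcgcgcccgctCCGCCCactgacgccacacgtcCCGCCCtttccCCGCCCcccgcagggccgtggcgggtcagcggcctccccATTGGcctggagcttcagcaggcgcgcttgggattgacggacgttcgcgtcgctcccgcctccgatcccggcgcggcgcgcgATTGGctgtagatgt
Lmna: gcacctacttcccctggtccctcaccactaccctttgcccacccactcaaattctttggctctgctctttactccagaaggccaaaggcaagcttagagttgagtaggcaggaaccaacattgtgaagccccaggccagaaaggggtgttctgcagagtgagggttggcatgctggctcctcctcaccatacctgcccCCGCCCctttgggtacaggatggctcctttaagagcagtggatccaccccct

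Tmpo, Sun2, Lbr and Sun1 had CpG-rich windows, with 32, 31, 31 and 30 CpG dinucleotides against a median of 6 over the 32851 windows of the genome. The printed Lmna window held 1 and the other Lmna window 4. Of the further windows not printed, Syne2 held 26, the second Tmpo window 16, the upstream Lmnb2 window 14 and Emd 12. The rest held from 1 to 7. CCAAT, the NF-Y motif, was found at 2 places in each of the printed Tmpo, Sun2, Lbr and Sun1 windows. Of all windows, 33.8% hold it and 10.1% hold it at 2 or more places. Among the genes whose windows are not printed, Emd held it once, and no window of Lmnb2, Syne1 or Syne2 held it. GGGCGG, the GC box bound by Sp1, was found 4 times in Tmpo and Sun2 (overlapping copies counted separately), 3 times in Sun1, and once each in Lbr and Lmna. Of all windows, 32.7% hold it and 16.7% hold it at 2 or more places. Among the genes whose windows are not printed, Syne2 held it 3 times, Syne1 2 times, and Lmnb2 and Emd once each. In Sun2 a CCAAT runs directly into a GGGCGG. The cell cycle motif TTTGAA, searched on both strands, was found once in the Lbr and Sun2 windows and in 16.0% of all windows. The E2F-type motifs TTTGGCGC and TTTCCCGC, searched likewise, which 0.417% and 0.895% of windows hold, were in none of the 5 printed windows. The second Tmpo window, not printed, held TTTCCCGC once, 195 bases before its start site, and TTTGAA once. The second windows of Lmna and Sun1, not printed either, held CCAAT once each, and neither TTTGAA nor an E2F-type motif. Sun1 and Sun2, whose ratios differ, both held the capitalised motifs, with GGGCGG 3 times in Sun1 and 4 times in Sun2. The part of any motif in the ratios was not tested.

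The wider envelope machinery was split in direction. Over all measured genes 60.9% were higher, a share to set beside the list counts here and below. Of 44 genes in 6 neighbouring lists, 41 were measured, 21 higher and 20 lower. Their median log2 ratio of 0.01 turned to -0.07 with TMM factors. On log2(CPM + 1), 2 genes passed 1.5-fold higher and 1 lower, against 9.43% and 3.52% of all measured genes. All 3 stood in the list named other inner membrane proteins. These 3 became 4 with a pseudocount of 0.1 CPM, 2 with TMM factors and 0 with a pseudocount of 5 CPM. Ankle1, a LEM domain nuclease, had 4.10 CPM in control and 8.16 in Seh1cKO, for a ratio of 1.99 (1.52 to 2.61), and was the 1 gene of these lists in the authors' deposited table, at a log2 fold change of 1.01 and a false discovery rate of 7.61e-07 from 1 library per group. Tmem194 (Nemp1), an inner membrane protein, had a ratio of 1.65 (1.36 to 1.99). Nrm, nurim, was at 23.0 and 14.4 CPM, 1.60-fold lower (1.38 to 1.86). The list median was 0.09.

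The enzymes that mature the lamins went both ways. Of 6 genes for CaaX processing, 4 were higher and 2 lower, with a median of 0.02 that turned to -0.07 with TMM factors. Fnta, the shared alpha subunit of farnesyltransferase and its geranylgeranyl counterpart, was at 151 and 115 CPM, 1.32-fold lower (1.25 to 1.39). Its farnesyltransferase partner Fntb had a ratio of 1.17 (1.06 to 1.29), and Zmpste24, the protease that cuts prelamin A, 1.15 (1.06 to 1.24). Narf, which binds prelamin A, was 1.30-fold lower (1.18 to 1.43). All 4 torsins, ATPases of the envelope lumen, had ratios below 1, with a median of -0.09. Of these, Tor2a had an interval below 1, at 1.16-fold lower (1.06 to 1.26).

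Genes of envelope assembly and repair were split, 5 higher and 4 lower, with a median of 0.10. Vrk1, the kinase that releases BAF from chromatin, had a ratio of 1.32 (1.18 to 1.49) and Banf1, which encodes BAF, the partner of the LEM proteins, 1.11 (1.05 to 1.17). Chmp7, an ESCRT protein that seals the envelope, had a ratio of 1.13 (1.06 to 1.20), while the ESCRT gene Chmp4b was 1.08-fold lower (1.04 to 1.13). Chromatin partners of the lamina were near equality, with 5 of 6 lower and a median of -0.08. The most abundant, Cbx3 (HP1 gamma), was at 290 and 277 CPM, and Cbx5 (HP1 alpha), which binds the lamin B receptor, at 239 and 223 CPM. Other SUN and KASH genes were scarce: 4 of 7 were measured, all higher though 3 had intervals across 1, with a median of 0.24. Syne4, nesprin-4, with the largest ratio of these, was at 0.772 and 1.55 CPM, for a ratio of 2.01 (1.07 to 3.93) without pseudocount, and the ratio of Syne3, nesprin-3, was 1.36 (0.837 to 2.24).

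**Figure D5:**
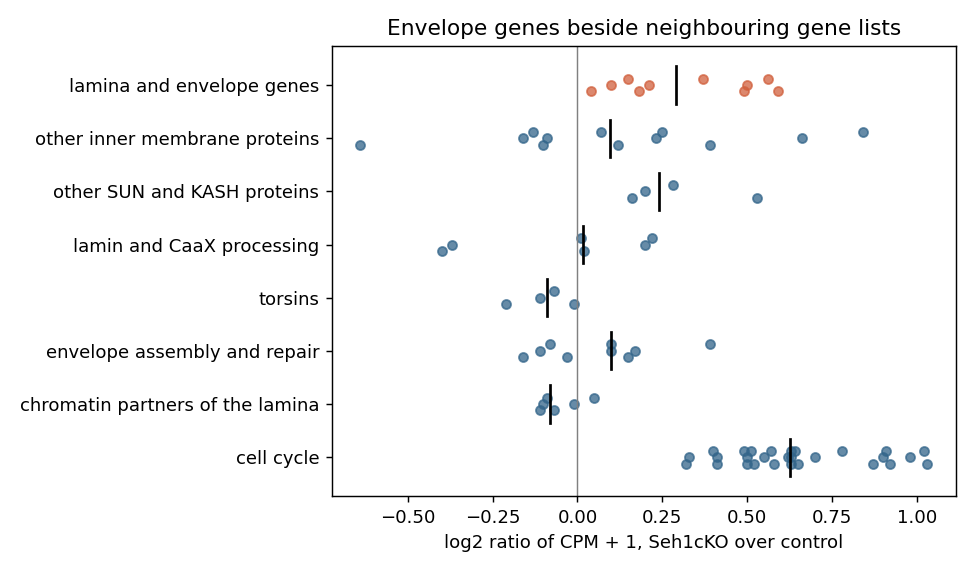
Log2 ratio of CPM + 1, Seh1cKO over control, for each measured gene of the envelope genes (top row), the 6 neighbouring lists and the cell cycle list; black bars are list medians. The envelope genes lie between 0.04 and 0.59, with Sun1 below 0 under other scalings, and the cell cycle genes between 0.32 and 1.03.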

How the data were processed

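RNA sequencing gave 1 gene table per library. The authors deposited an expected count, an FPKM value and a transcript length per gene under Entrez identifiers. HTSeq, StringTie and mm10 stand in the submitters' processing notes without their roles; aligner and strandedness have no mention in the labels, so reads of overlapping antisense genes cannot be separated. Expected counts were not whole for 29.3% (control) and 29.5% (Seh1cKO) of genes. The deposited FPKM matched the count per length and total within 5% for 98.1% of 8891 control genes and 98.2% of 9195 Seh1cKO genes at 5 FPKM or more. Their further deposited table gives a log2 fold change, p-value and false discovery rate by a test not named in the sources used here.

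Expected counts were rounded and scaled to CPM; genes missing from a table were set to 0. Log2 ratios use CPM + 1, which understates low genes, and genes count as measured from a mean of 1 CPM. Single ratios are without pseudocount, with exact 95% Clopper-Pearson intervals; changes of a read ratio have exact conditional intervals (scipy 1.17.1). Reads carry no molecular identifiers, so intervals cover counting error only, and 3 reads, the limit that a count of 0 allows, are 0.145 CPM in control and 0.146 CPM in Seh1cKO. The interval code was tested on simulated data. Coordinates and promoter windows are RefSeq's for GRCm38.p6, the assembly behind mm10; list symbols were matched by identifier through synonyms. Fixed alternatives were pseudocounts, scalings (TMM by edgeR 4.0.16), FPKM values, floors and leaving out chromosomes X and Y. The named genes are all 10 envelope genes, Seh1l, up to 3 per neighbouring list by absolute log2 ratio plus the most abundant, and the 3 most abundant of each marker list; not all are printed, and Mobp, Upk3b, Cldn5, Tm7sf2, Pdgfra, Gpr17, Gja1, Aldh1l1, Cdh5, Zmpste24 and Banf1 were added after their values were seen. The genes, lists and tests were chosen with earlier results of these data known. The 20 CPM comparison set and the intervals under other scalings were added after seeing the data.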

Additional observations from a re-analysis of the deposited data

How the results depend on the processing

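No gene of the 10 passed 2-fold under any of the 9 alternatives. The count past 1.5-fold, 1 (Lmna), was 0 with a pseudocount of 5 CPM, with median of ratios size factors, with TMM factors and on the deposited FPKM scale, where the longer deposited Lmna transcript enters. The median log2 ratio of the 10 genes ranged from 0.21 (TMM) to 0.37 (without chromosomes X and Y). The median of ratios and TMM lowered the median of all measured genes by 0.07 and 0.08. TMM also moved the higher genes from 72.8% to 62.3% of all genes past 1.5-fold. Sun1 went from a log2 ratio of 0.04 to -0.04 and -0.05 under these scalings. Of 60 recomputed log2 ratios of the 10 genes, 56 stayed within the counting interval and 4 (3 of Lmna, 1 of Tmpo) moved lower, and none of these 4 changed sign. The 3 neighbouring genes past 1.5-fold became 0 with a pseudocount of 5 CPM. All 14 shares recomputed from count per length stayed within their sampling error. That recomputation could hardly differ, because the deposited FPKM nearly equals count per length and total. The floor of 5 CPM left no other SUN or KASH gene. No paired analysis was possible because each group has 1 library. Of the 8 genes with a counting interval above 1, Lmnb2 and Emd lost it under the median of ratios and TMM, and none did under the upper quartile. At this depth the choice of scaling thus decides ratios near 1.14 (Lmnb2), and variation between cultures was not measured.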
